A study of Mus musculus with 6 samples.

Results

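p53 is the transcription factor that answers DNA damage and other stress. The protein is kept low by MDM2, a ubiquitin ligase whose gene is itself a p53 target, so that the pathway closes a feedback loop. Its targets stop the cell cycle, aid repair, alter metabolism, or start cell death through the BCL2 family, in which BH3-only proteins release BAX and BAK1 from the pro-survival members BCL2, BCL-XL and MCL1. Released cytochrome c then joins APAF1 to activate caspase-9, while death receptors activate caspase-8. The same machinery is present in cardiomyocytes.

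The expression of 38 genes of this pathway was examined in cultured mouse cardiomyocytes after knockdown of DNMT1, the maintenance DNA methyltransferase, to see whether p53 targets and death genes changed with it. The genes were given by name as p53, its regulators and targets and the main apoptosis regulators. No limit on their change was used, but the set was chosen with earlier results of these data known. All 38 were found among the 43629 genes of the count files, and all 38 passed the filter on low counts that left 15470 genes. The least covered member was Ddb2, with 21 to 100 reads per culture.

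Cells came from ventricles of CD-1 mouse embryos at embryonic day 13.5, with the ventricles of a litter pooled. They were transfected with lipid reagent and 12 nM of either a pool of siRNAs against DNMT1 (DNMT1 siRNA, 3 cultures) or a negative control siRNA (negative siRNA, 3 cultures), sorted for the surface protein VCAM1 after 72 h, and their poly(A) RNA was sequenced. The labels do not tell whether the cultures of a group came from separate litters, so the p-values measure the spread between these cultures, which may be technical. In the labels, the titles of the 3 DNMT1 siRNA samples give DNMT1, but 1 of their tags gives DNMT3a as the siRNA target. Grouping went by title.

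Dnmt1 stood at 3446, 2759.5 and 2878 normalised counts in negative siRNA replicates 1 to 3 and at 772, 786 and 666 in DNMT1 siRNA replicates 1 to 3, a log2 fold change of -2.03 (SE 0.11, edgeR FDR = 0.000192). Values of a gene are given in this order throughout, the negative siRNA cultures first and the DNMT1 siRNA cultures after them. Reads on genes ranged from 13739561 to 35896018 per culture, and all DNMT1 siRNA libraries were smaller than all negative siRNA libraries. Reads outside annotated exons made up 16.4% ± 1.58 (SD, n = 3) in the negative siRNA group and 29.3% ± 4.23 (SD, n = 3) in the other (exact permutation test, two-sided, p = 0.1, the smallest that 3 against 3 allow). The summed level of 9 cardiomyocyte markers was 1928 to 2348 CPM (reads scaled to library size) with negative siRNA and 3564 to 4451 with DNMT1 siRNA, and that of 7 fibroblast markers 29342 to 45207 and 21468 to 22647. The cultures therefore held transcripts of both lists in spite of the sort. Col1a1 was above Myh6 per exon length (3542 and 111 CPM per kb with negative siRNA). The study cites its earlier flow cytometry, in which most sorted cells were cardiomyocytes. That is a share of cells, a measure unlike the levels of RNA given here. Each sum is weighted to its most abundant genes. Of the 9 cardiomyocyte markers, 7 had a positive log2 fold change. The other 2 were negative, Tnni1 (-0.18) and Vcam1 (-0.26), the gene of the sorted protein. Of the 7 fibroblast markers, 6 were negative and 1 was positive, Tcf21 at 0.0052. Fewer cells of a type and less RNA per cell cannot be told apart in such bulk samples. The smooth muscle sum was 5088 to 7741 and 4376 to 4588, above the cardiomyocyte sum in every culture. The epicardial sum was 1519 to 1777 and 1685 to 1757. Lower sums were those of the endothelial list, 75.5 to 115 and 106 to 123, and the macrophage list, 15.7 to 41.7 and 13.2 to 19.1. Of 6 erythroid genes, 5 were at 0 in a culture. Negative siRNA replicate 2 stood apart from replicates 1 and 3 for many genes below, and values without it are given below for the genes it moved most.

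Few of the 38 genes passed the test with DNMT1 siRNA. Btg2 and Perp were up-regulated, with an FDR below 0.05 and a fold change above 1.5, and no member was down-regulated. That is 5.26% of the members, beside 4.26% of all tested genes up-regulated and 2.23% down-regulated, so that the share called was near the background. With the FDR limit alone, Apaf1 and Mcl1 were added, making 4 members higher (10.5%, beside 6.81% of all genes) and none lower (beside 5.65%). Other settings put Bid past the FDR limit, lower with the exact test (2.63% of members, beside 6.79%). The same held without short non-coding and mitochondrial genes (2.63%, beside 6.02%). With no filter, Bid, Bnip3 and Ddit4 were lower (7.89%, beside 5.48%) and 2 members higher (5.26%, beside 4.84%). That fit moved the median of all genes to 0.11. At an unadjusted p below 0.05 in the edgeR test, 6 members were higher (15.8%, beside 14.9% of all genes) and 2 were lower (5.26%, beside 14.3%), and DESeq2 called no member down-regulated either.

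The changes were small as well as few. The median log2 fold change was 0.010, with 19 members positive and 19 negative, beside -0.0049 over all genes tested, and values ran from -0.70 (Bnip3) to 0.75 (Perp). The median absolute log2 fold change was 0.149 over the members and 0.197 over all genes. For 31 members (81.6%, beside 55.6% of all genes) the 95% interval lay within a 1.5-fold change either way. The exceptions were Btg2, Perp, Gdf15, Ddit4, Ddb2, Bid and Bnip3. Each interval limits only how large a difference between these cultures could have been missed, and their spread may be technical. All 3 DNMT1 siRNA cultures lay above all 3 negative siRNA cultures for 6 members (15.8%, beside 18.3% of all genes) and below them for 5 (13.2%, beside 17.7%).

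**Figure D1:**
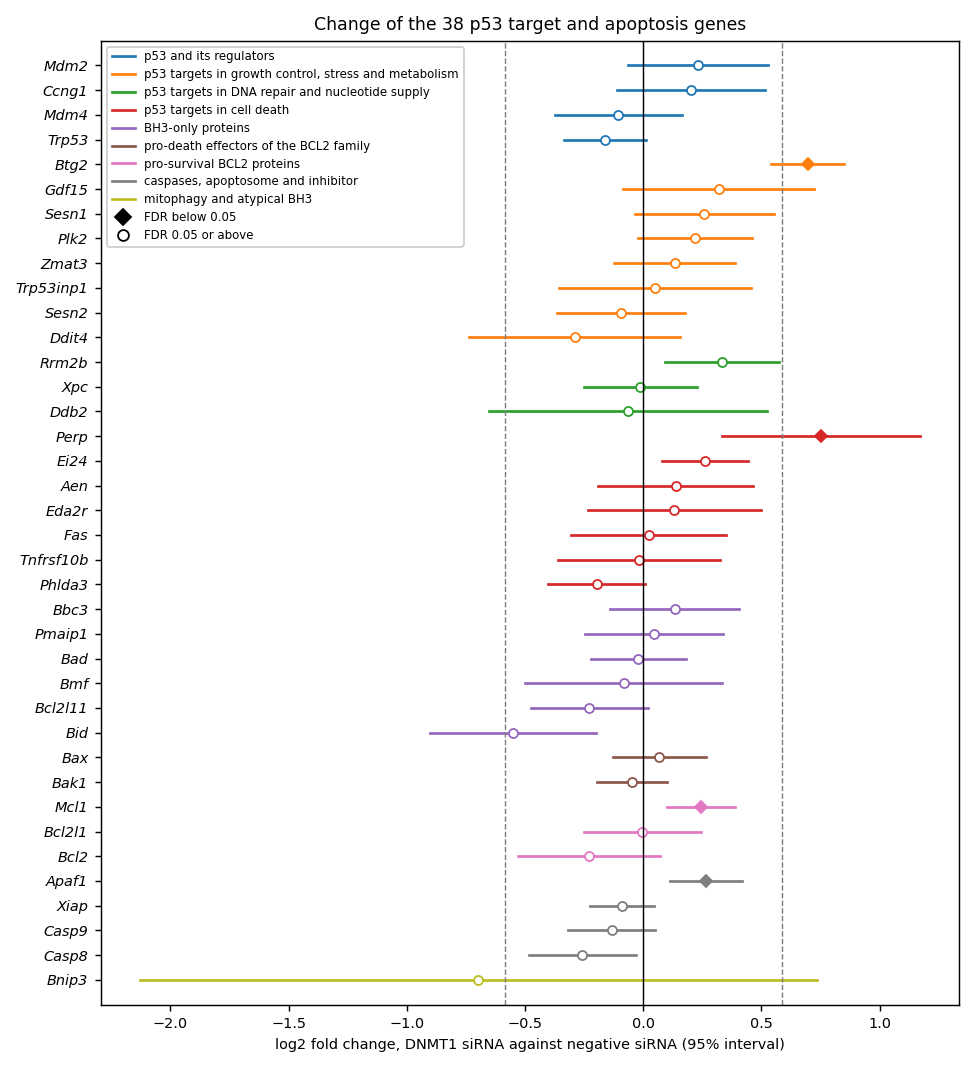
Log2 fold change of each of the 38 genes, DNMT1 siRNA against negative siRNA, with its 95% interval as a line, coloured by role; filled diamonds have an FDR below 0.05 and dashed lines mark a 1.5-fold change. Btg2 and Perp lie beyond the upper line at 0.70 and 0.75, and the interval of Bnip3 runs from -2.13 to 0.73.

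Of the 3 members past the FDR limit that have promoter windows in RefSeq (GRCm38.p6, 250 bases before to 50 after the start site), with the start site as RefSeq places it, all 3 windows are printed here because DNMT1 copies methylation at CpG sites, which are in capitals. Btg2 was printed as a called gene, and Apaf1 and Mcl1 were added after their values were seen. The windows are on the strand of the gene: Btg2 at chr1:134079106-134079405 (minus strand), Apaf1 at chr10:91082694-91082993 (minus strand) and Mcl1 at chr3:95658471-95658770 (plus strand).
Btg2: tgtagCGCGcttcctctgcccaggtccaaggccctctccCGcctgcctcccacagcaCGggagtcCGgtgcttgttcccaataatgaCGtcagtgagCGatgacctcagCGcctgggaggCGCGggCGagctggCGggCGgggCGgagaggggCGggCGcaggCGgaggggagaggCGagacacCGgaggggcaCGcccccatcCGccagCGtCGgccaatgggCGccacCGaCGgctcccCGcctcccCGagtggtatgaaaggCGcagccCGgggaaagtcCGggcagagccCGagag
Apaf1: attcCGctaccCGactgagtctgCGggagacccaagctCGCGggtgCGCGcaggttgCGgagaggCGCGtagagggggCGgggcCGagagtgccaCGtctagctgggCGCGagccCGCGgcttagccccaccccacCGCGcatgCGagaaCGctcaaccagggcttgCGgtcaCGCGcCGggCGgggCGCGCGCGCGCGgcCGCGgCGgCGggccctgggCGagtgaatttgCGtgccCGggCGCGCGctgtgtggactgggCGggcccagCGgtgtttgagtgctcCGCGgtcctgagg
Mcl1: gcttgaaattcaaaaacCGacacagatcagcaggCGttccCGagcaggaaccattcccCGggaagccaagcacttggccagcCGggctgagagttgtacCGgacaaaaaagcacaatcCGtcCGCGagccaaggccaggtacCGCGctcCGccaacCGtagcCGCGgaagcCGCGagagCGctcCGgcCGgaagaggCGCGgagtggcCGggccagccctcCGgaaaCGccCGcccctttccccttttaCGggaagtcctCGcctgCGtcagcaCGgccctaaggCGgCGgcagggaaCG
These hold 32, 46 and 33 CpG sites. Over the 44 windows of 30 members the median was 21, with a range of 1 to 46, and over all 32851 windows of the table it was 7. Methylation was not measured in these files. Perp, Pmaip1, Trp53inp1, Zmat3, Tnfrsf10b, Rrm2b, Ddb2 and Xpc had no window.

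p53 binds pairs of a 10-base element with a core of 4 letters. A search for cores (CAAG, its reverse complement CTTG, and the palindromes CATG and CTAG, so that both strands were covered) with 6 bases between them found a match in 5 of the 44 member windows (11.4%), beside 7.22% of all windows. They belong to Aen, Bbc3, Plk2 and Trp53, with 1 site shared by both windows of Aen. The sites are shown with 10 bases on each side and the cores in capitals, all on the plus strand: Aen at chr7:78895930-78895963, Bbc3 at chr7:16309479-16309512, Plk2 at chr13:110395031-110395064 and Trp53 at chr11:69580277-69580310.
Aen: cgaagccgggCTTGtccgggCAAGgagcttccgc
Bbc3: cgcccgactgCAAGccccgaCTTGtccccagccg
Plk2: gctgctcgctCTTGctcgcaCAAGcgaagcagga
Trp53: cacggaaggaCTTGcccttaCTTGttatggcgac
None of the 4 genes was past a limit with DNMT1 siRNA, and the windows of Btg2, Apaf1 and Mcl1 held no such pair in these 300 bases. A match is a description of letters only.

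At the head of the pathway, p53 and its regulators did not pass the test. Trp53 (ENSMUSG00000059552, GRCm38 chromosome 11, 69580359 to 69591873) stood at 2159, 1854 and 2116 normalised counts in negative siRNA replicates 1 to 3 and at 1821, 1806 and 1856 in DNMT1 siRNA replicates 1 to 3. Replicate 2 of the negative siRNA cultures lay within the range of the DNMT1 siRNA cultures and the others above it. The log2 fold change was -0.16 (SE 0.076, edgeR FDR = 0.204), and without negative siRNA replicate 2 it was -0.23 (FDR = 0.0311), past the FDR limit but well short of a 1.5-fold change.
Mdm2, the ligase that removes p53, was at 2899.7, 2303 and 3439 against 3369.8, 3476 and 3309, with negative siRNA replicates 1 and 2 below all DNMT1 siRNA cultures and replicate 3 among them. Its log2 fold change was 0.23 (SE 0.13, FDR = 0.274), and 0.10 without replicate 2. Mdm4, which binds p53 and blocks its activity, was at 2428, 2559 and 3282 against 2522, 2767 and 2396, so that the groups overlapped, and its log2 fold change was -0.11 (SE 0.12, FDR = 0.593). Ccng1 encodes cyclin G1, a p53 target that acts back on MDM2, and it had the highest level of the 38 genes per exon length, 204 CPM per kb with negative siRNA and 234 with DNMT1 siRNA. Its normalised counts were 15234, 12462 and 18966 against 17565, 17601 and 18469.6, and the groups overlapped (log2 fold change 0.20, SE 0.14, FDR = 0.372). Without negative siRNA replicate 2, its lowest culture, the log2 fold change was 0.064 (FDR = 0.67), and without replicate 3, its highest, 0.37 (FDR = 0.0492). Leaving out a gene's own extreme culture can narrow its spread. For any gene, an FDR from such a fit is therefore a description only.

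Btg2, an antiproliferative p53 target that binds the CCR4-NOT deadenylase, gave the clearest change. Its gene (ENSMUSG00000020423, chromosome 1, 134075170 to 134079120) was at 3049.6, 2782 and 3146 normalised counts with negative siRNA and at 4929, 4803 and 4807 with DNMT1 siRNA, so that every DNMT1 siRNA culture lay above every negative siRNA culture. The log2 fold change was 0.70 (SE 0.068, 95% interval 0.54 to 0.85, edgeR FDR = 0.00125). It was past both limits in all 13 refits with another tool, normalization, filter or block or with 1 culture left out, where it ran from 0.65 to 0.73. The cardiomyocyte marker sum moved the same way between the groups, and its part in this value and in those of Perp, Mcl1 and Apaf1 below was not tested.
The other 7 targets in growth control, stress and metabolism did not pass the FDR limit. Gdf15, a secreted stress hormone of the TGF-beta family, was at 197, 161 and 255 against 276, 246 and 240.4, a log2 fold change of 0.32 (SE 0.18, FDR = 0.27), with the highest negative siRNA culture inside the DNMT1 siRNA range. Sesn1 and Sesn2, sestrins that restrain mTORC1, had log2 fold changes of 0.26 (FDR = 0.223) and -0.10 (FDR = 0.629). Without negative siRNA replicate 2, Sesn1 had 0.40 (FDR = 0.0227). Ddit4, another inhibitor of mTORC1 that answers hypoxia as well as p53, was at 935, 1756 and 1343 against 1079, 1106 and 1112, with negative siRNA replicate 2 far above the rest (log2 fold change -0.29, FDR = 0.364). With replicate 2 left out Ddit4 had -0.048 (FDR = 0.841), and without replicate 1, the lowest, -0.50 (FDR = 0.0301). Plk2, a polo-like kinase, Zmat3, an RNA-binding zinc finger protein, and Trp53inp1, an autophagy and stress protein, had 0.22, 0.13 and 0.048. Of the 13 refits, Zmat3 passed the FDR limit only in the one without negative siRNA replicate 3 (0.27, FDR = 0.0447).

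Among the genes of DNA repair and nucleotide supply, Rrm2b, the p53-inducible subunit of ribonucleotide reductase, was at 330.3, 308 and 363 with negative siRNA and at 436, 385 and 439.9 with DNMT1 siRNA, without overlap. It did not pass the test (log2 fold change 0.33, SE 0.11, FDR = 0.077), and 8.0% of its exon length is shared with an antisense gene. Xpc and Ddb2, which recognise damage for nucleotide excision repair, had log2 fold changes of -0.012 (FDR = 0.952) and -0.066 (FDR = 0.889). Ddb2 had the lowest level per exon length of all 38 genes, 0.963 and 0.914 CPM per kb, with 1 DNMT1 siRNA culture at 34.3 normalised counts, the others at 63.0 and 65.6, and an interval of -0.65 to 0.52.

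Of the 7 death targets of p53, Perp alone was up-regulated. PERP is a membrane protein of desmosomes that also takes part in p53-dependent cell death. Its gene (ENSMUSG00000019851, chromosome 10, 18845020 to 18857073) was at 734, 467 and 825 normalised counts with negative siRNA and at 1184, 1141 and 1083 with DNMT1 siRNA, and the groups did not overlap (log2 fold change 0.75, SE 0.18, 95% interval 0.33 to 1.17, edgeR FDR = 0.0349). Negative siRNA replicate 2 was the lowest of the 6 cultures, and without it the log2 fold change was 0.55 (FDR = 0.00256), below the limit of 1.5-fold. The FDR was 0.125, 0.132 and 0.109 when DNMT1 siRNA replicate 1, 2 or 3 was left out, and Perp was past both limits in 9 of the 13 refits.
Ei24, a membrane protein of the endoplasmic reticulum, was at 3203, 2786 and 3323 against 3839, 3709.7 and 3614, higher in all 3 DNMT1 siRNA cultures but not past the limit (log2 fold change 0.26, FDR = 0.0669), unless negative siRNA replicate 3 was left out (0.31, FDR = 0.0456). Phlda3, an inhibitor of AKT, was lower in all 3 DNMT1 siRNA cultures, at 2638, 2805 and 3206 against 2607, 2611 and 2327 (log2 fold change -0.20, FDR = 0.188). The death receptor genes Fas and Tnfrsf10b (the TRAIL receptor), the receptor gene Eda2r and the nuclease gene Aen had log2 fold changes of 0.024, -0.019, 0.13 and 0.14. Their FDRs were 0.567 to 0.947. For each of these 4 genes negative siRNA replicate 2 was the lowest culture, and replicate 3 lay among or above the DNMT1 siRNA cultures.

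**Figure D2:**
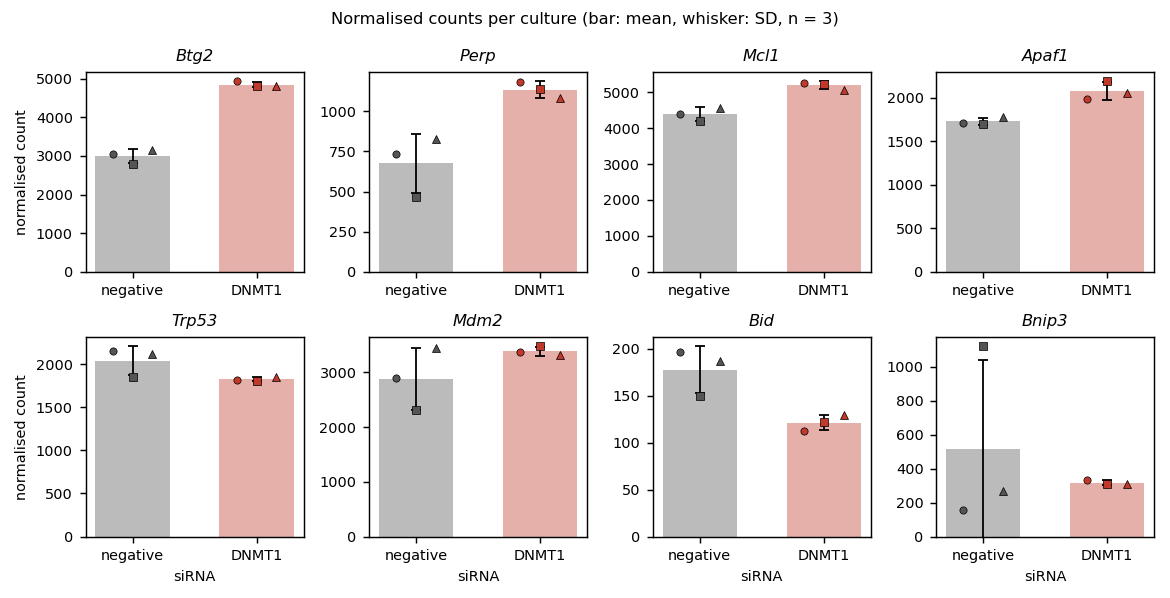
Normalised counts of 8 genes in each culture (points; circle, square and triangle for replicates 1, 2 and 3), with the mean as a bar and the SD as a whisker (n = 3), the whisker of Bnip3 ending at the axis. Btg2 is separated between the groups, and Bnip3 has 1 negative siRNA culture at 1121 normalised counts.

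The BH3-only genes, whose products sense stress and start the mitochondrial route, were not past a limit. Bbc3 (PUMA) was at 649, 812 and 818 with negative siRNA and 897, 867 and 729 with DNMT1 siRNA, a log2 fold change of 0.13 (SE 0.12, FDR = 0.498). Pmaip1 (NOXA) was at 533, 421 and 554 against 544, 461 and 551, 0.045 on the same scale (SE 0.13, FDR = 0.845). Both of these direct p53 targets overlapped between the groups. Bid, whose product is cut by caspase-8 and carries the signal to the mitochondria, was at 197, 149.6 and 187 against 113, 122 and 129, lower in all 3 DNMT1 siRNA cultures. Its log2 fold change of -0.55 (SE 0.15, FDR = 0.0511) narrowly missed both limits. Without negative siRNA replicate 2 it was -0.66 (FDR = 0.0106), past both limits. Bid also passed the FDR limit alone with the exact test, with no filter, and without short non-coding and mitochondrial genes. For Bid, 17.7% of its exon length is shared with the antisense gene Bcl2l13. Bcl2l11 (BIM), Bmf and Bad had -0.23, -0.083 and -0.021, with FDRs of 0.205, 0.797 and 0.9.

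Bax and Bak1, the pore-forming effectors, had intervals close to 0. Bax was at 1686, 1475 and 1607 against 1734, 1752 and 1511 (log2 fold change 0.068, 95% interval -0.13 to 0.26, FDR = 0.634), and Bak1 had -0.048 (95% interval -0.20 to 0.10, FDR = 0.665). Exons shared with another gene make up 12.2% of Bax and 25.5% of Bak1. Such sharing was found for 10 members, Ddb2 (23.8%), Bnip3 (22.3%) and Bad (20.5%) among them. Their counts may be uncertain to that extent, as the annotation searched is newer than the one used for counting. The gene that shares exons with Bax lies on the same strand, and those of the other 9 lie antisense, where the strand setting of the counting would matter and is not given in the sources used here.
Among the pro-survival genes, Mcl1, a short-lived member of the family, was at 4404, 4199.6 and 4576 with negative siRNA and at 5275, 5245 and 5078 with DNMT1 siRNA, without overlap. It rose by 0.24 on the log2 scale (SE 0.063, edgeR FDR = 0.042), below a 1.5-fold change. Bcl2l1 (BCL-XL) was at 3137, 2496 and 3401 against 3028, 2987 and 2993 (log2 fold change -0.0041, 95% interval -0.25 to 0.24), and Bcl2 at 553, 496 and 439 against 452, 461 and 355 (log2 fold change -0.23, SE 0.13, FDR = 0.286), with overlapping groups for both.

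In the caspase step, Apaf1, the scaffold of the apoptosome, was at 1710.4, 1701 and 1775 against 1990.0, 2186 and 2054, without overlap. It rose by 0.26 on the log2 scale (SE 0.066, edgeR FDR = 0.0371). Mcl1 and Apaf1 each kept an FDR below 0.05 in 7 of 13 refits, and lost it whenever a DNMT1 siRNA culture was left out (Mcl1 0.155 to 0.203, Apaf1 0.118 to 0.185). With the replicate number as a block the FDR was 0.0977 for Mcl1 and 0.0851 for Apaf1. Both genes also lost the FDR limit with no filter and without negative siRNA replicate 1. Casp9, which APAF1 activates, was at 530.4, 522 and 564 against 471, 497 and 505 (log2 fold change -0.13, SE 0.081, FDR = 0.313). Casp8, the caspase of the death receptors, was at 536, 591 and 517 against 481, 413 and 481 (log2 fold change -0.26, SE 0.10, FDR = 0.126). Xiap, a caspase inhibitor, had -0.09 (SE 0.059, FDR = 0.355). For all 3 genes the DNMT1 siRNA values lay below the negative siRNA values without overlap, and none passed the test.

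Bnip3, a BH3-like mitophagy receptor induced by hypoxia, had the most negative log2 fold change of the 38 genes and the least certain one. It was at 158, 1121 and 268 with negative siRNA and at 335, 309 and 307 with DNMT1 siRNA, so that 1 negative siRNA culture stood far above all the others. The log2 fold change was -0.70 (SE 0.62, FDR = 0.497) with that culture and 0.59 (FDR = 0.0793) without it. In the same culture, 14 of 15 other HIF target genes were the highest of the 3 negative siRNA cultures (93.3%, beside 38.1% of all genes). Their part in the Bnip3 value was not tested.

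The spread between cultures was wider with negative siRNA for 30 of the 38 genes, a difference that was not tested. The share of all genes with a wider spread was not counted, and the median over all genes went the same way. Over the members, the median SD of log2 normalised counts was 0.211 in the negative siRNA group and 0.0539 in the DNMT1 siRNA group, beside 0.175 and 0.0988 over all genes tested. Negative siRNA replicate 2 was the lowest negative siRNA culture for 25 of 38 members (65.8%, beside 35.0% of all genes) and for 6 of the 7 death targets, and replicate 3 was the highest for 23 (60.5%, beside 31.6%). Cdkn1a, the cell cycle inhibitor p21 and a main p53 target outside the 38, had the same order, at 6620.4, 6175 and 8225 with negative siRNA and at 7912, 7900.3 and 8025 with DNMT1 siRNA (log2 fold change 0.18, FDR = 0.294). Without replicate 2, 1 member was up-regulated (Btg2) and 1 down-regulated (Bid), and the median log2 fold change was -0.038 (17 members positive and 21 negative), while 5.42% and 2.78% of all genes were called in each direction. Among members not given above without that culture, the log2 fold change became 0.038 for Zmat3, 0.11 for Plk2, 0.18 for Gdf15, -0.13 for Trp53inp1, -0.11 for Fas, -0.19 for Tnfrsf10b, -0.054 for Eda2r, -0.028 for Aen, -0.068 for Pmaip1, -0.12 for Bcl2l1 and 0.15 for Bmf. None of these 11 genes passed the FDR limit in that fit. With the FDR limit alone, that fit had 5 members higher (13.2%, beside 9.48% of all genes) and 2 lower (5.26%, beside 8.15%). Without negative siRNA replicate 3, 7 were higher (18.4%, beside 7.16%) and 0 lower (beside 5.62%). Without replicate 1, 2 were higher (5.26%, beside 6.8%) and 1 lower (2.63%, beside 6.97%).

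**Figure D3:**
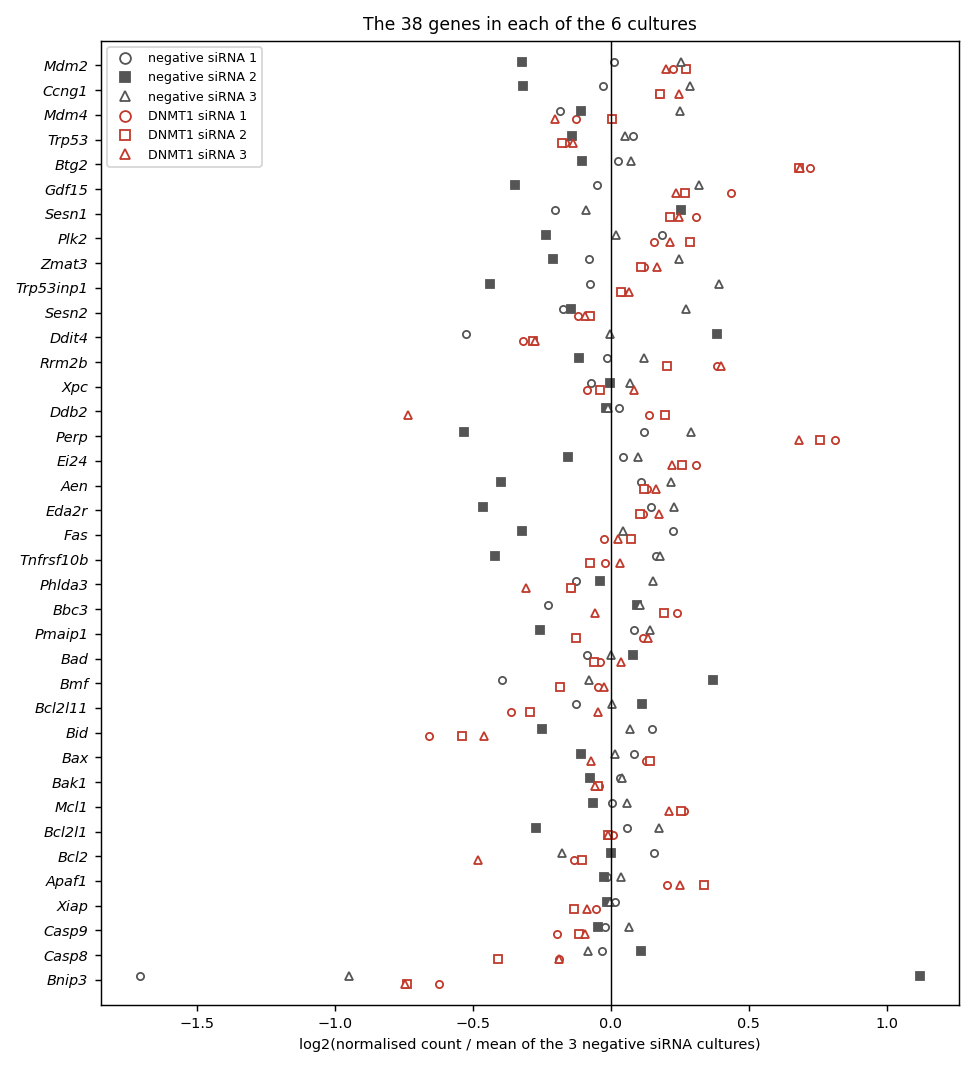
Each of the 38 genes in each culture, as the log2 ratio of its normalised count to the mean of the 3 negative siRNA cultures; grey symbols are negative siRNA (replicate 2 filled) and red symbols DNMT1 siRNA. The filled squares are the lowest grey symbols for 25 of 38 genes, and the red symbols of a gene mostly lie close together.

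Levels per exon length set the members in order. After Ccng1 came Phlda3 at 85.2 CPM per kb with negative siRNA, Mcl1 at 59.2, Btg2 at 50.2 and Bax at 46.4. With DNMT1 siRNA Btg2 stood second at 81.4, above Phlda3 at 74.3 and Mcl1 at 70.1. Transcripts of the pro-survival genes were thus at very unlike levels, with Mcl1 and Bcl2l1 (30.2) far above Bcl2 (2.49) with negative siRNA. Among the BH3-only genes Bbc3 was highest at 16.5 and Bid lowest at 2.31. These are levels in a mixture of cells, from an annotation newer than the one used for counting.

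**Figure D4:**
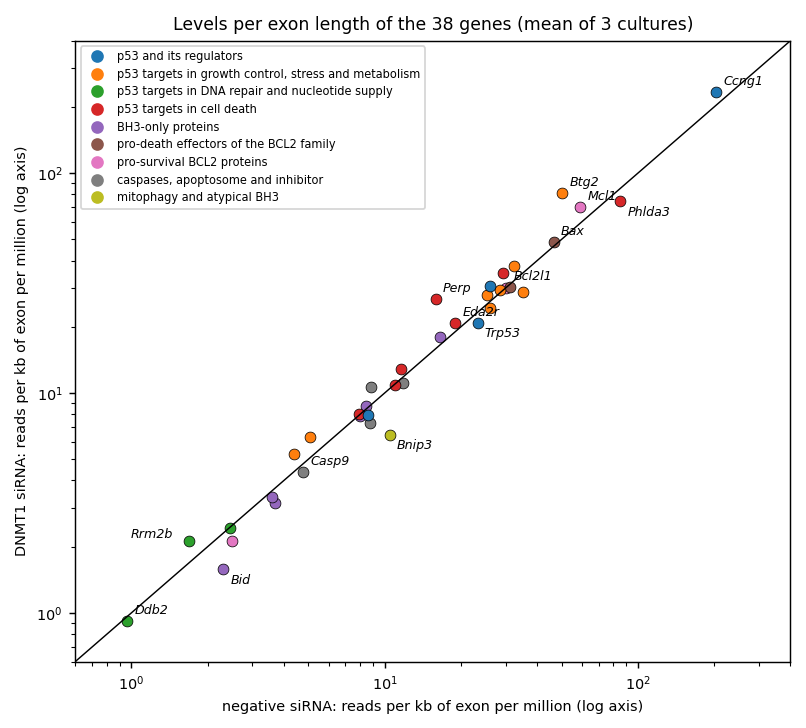
Mean level of each of the 38 genes in CPM per kb of exon, negative siRNA on the x axis and DNMT1 siRNA on the y axis (log axes), with the line of equality. Most points lie on or near the line, with Btg2 (50.2 and 81.4) and Perp (15.9 and 26.8) above it and Bnip3 (10.5 and 6.45) and Bid (2.31 and 1.58) below it.

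Related lists were counted in the same fit. Of 30 further genes of the p53 pathway, 29 were tested, 1 was up-regulated (3.45%, beside 4.26% of all genes) and 2 were down-regulated (6.9%, beside 2.23%), with a median log2 fold change of -0.012. With the FDR limit alone, 2 were higher (6.9%, beside 6.81%) and 4 lower (13.8%, beside 5.65%), and at an unadjusted p below 0.05, 6 were higher (20.7%, beside 14.9%) and 8 lower (27.6%, beside 14.3%). Those down-regulated were Fdxr, a mitochondrial ferredoxin reductase, which went from 315, 241 and 382 to 164, 149 and 159 (log2 fold change -0.99, FDR = 0.0116), and Gadd45a, a stress gene, from 316, 426 and 399.7 to 269.5, 169 and 211 (log2 fold change -0.81, FDR = 0.0287). The count of 2 became 1 without DNMT1 siRNA replicate 1, 0 without replicate 2 or replicate 3, 1 without negative siRNA replicate 3 and 1 with the replicate block. Trp63, a p53 relative, was up-regulated at very low counts, from 2.33, 2.76 and 0.778 to 14.8, 20.4 and 19.6. Of 31 further apoptosis genes 27 were tested and none was past both limits, with a median of -0.025. There were 3 that passed the FDR limit alone. Bag3 was higher at 0.37 (3.7% of the list, beside 6.81% of all genes). Bag1 and Casp12 were lower at -0.28 and -0.43 (7.41%, beside 5.65%). DESeq2 also called none of the 27 past both limits. At an unadjusted p below 0.05 edgeR had 4 higher (14.8%, beside 14.9% of all genes) and 6 lower (22.2%, beside 14.3%).
Some p53 targets also belong to other stress responses, and the lists of these responses differed in their values. All were chosen with earlier results of these data known. The study had predicted lower activity of ATF4 and of interferon signalling from the same samples. Their shares are therefore a description and not a test. The list of ATF4, the factor of the integrated stress response, held 16 genes, with Atf4 itself counted among the targets. Of these, 11 were down-regulated (68.8%, beside 2.23% of all genes), and the list's median was -0.91. The 11 included Trib3 (-1.77), Chac1 (-1.22), Asns (-1.15) and Shmt2 (-1.12), but not Atf4 (-0.57, FDR = 0.00701), which passed the FDR limit alone. Sesn2, Ddit4 and Gdf15, which also answer that pathway, did not pass the test (-0.10, -0.29 and 0.32). With each culture left out in turn, 8 to 13 were called, with 8 without DNMT1 siRNA replicate 2. No HIF target was called, with a median of -0.086. Its sign differed with the negative siRNA culture left out. Without replicate 2, 2 of 15 were up-regulated with a median of 0.26, without replicate 1, 1 was down-regulated with a median of -0.26, and without replicate 3 none was called, with a median of -0.21. Of 12 interferon-stimulated genes 4 were down-regulated (33.3%, beside 2.23% of all genes), with a median of -1.54. Negative siRNA replicate 2 was the lowest negative siRNA culture for all 12 (100%, beside 35.0% of all genes). Without that culture 11 were down-regulated, and without any other of the 6 cultures 0. The median lay between -1.92 and -1.13, with all 12 genes lower, in each of these fits. None of 18 proliferation genes was past both limits, with a median of -0.12. Mcm6 passed the FDR limit alone at -0.43 (5.56% of the list, beside 5.65% of all genes). DESeq2 called none of the HIF and proliferation genes either. At an unadjusted p below 0.05 edgeR had 1 HIF target higher (6.67%, beside 14.9% of all genes). It had 2 proliferation genes lower (11.1%, beside 14.3%).

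**Figure D5:**
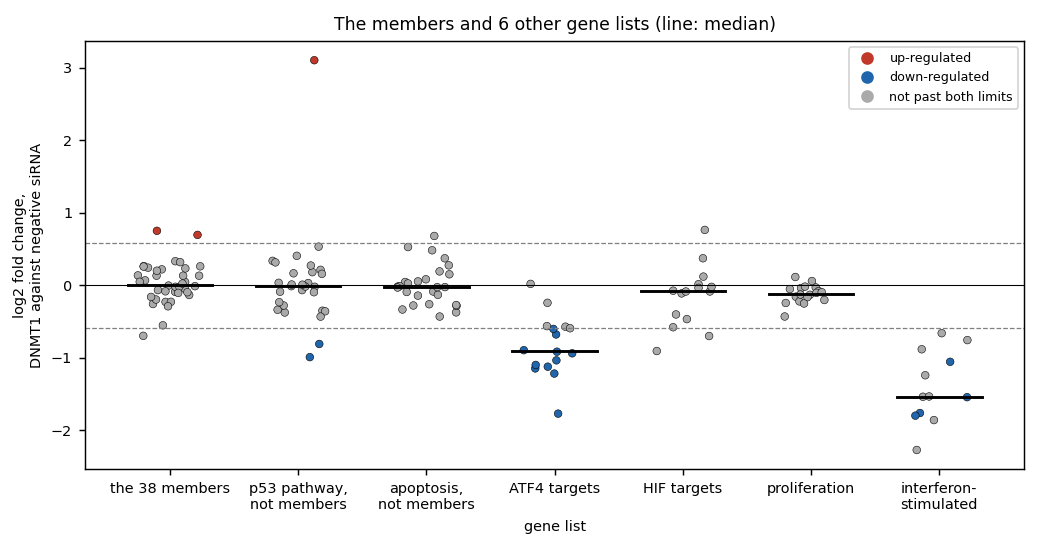
Log2 fold change, DNMT1 siRNA against negative siRNA, of each gene in the 38 members and 6 other lists, with the list's median as a line; red genes were up-regulated, blue genes down-regulated, and dashed lines mark a 1.5-fold change. The members centre on 0.010 and the ATF4 targets, with Atf4 itself, on -0.91. The lists were chosen with earlier results of these data known.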

How the data were processed

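Per the submitters' notes and the study's methods, the authors ran FastQC, TopHat2 (genome mm10) and HTSeq, and deposited unnormalised counts per Ensembl gene for each sample. Versions are not given in the sources used here. The 5 closing rows that name no gene (reads outside exons, ambiguous reads and others) were kept out of library sizes and tests. Ambiguous reads were 3.58% to 3.65% of uniquely mapped reads with negative siRNA and 6.02% to 6.35% with DNMT1 siRNA.

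Counts were tested in R 4.3.3 with edgeR 4.0.16 (quasi-likelihood F test, TMM normalization, filterByExpr with minimum count 10 and minimum total 15, Benjamini-Hochberg adjustment over 15470 genes). The study's limits were kept (FDR below 0.05, fold change above 1.5). SE is the absolute log2 fold change over the square root of F, and a normalised count is a count scaled to a common effective library size. Exon lengths for levels and the sharing of exons came from a GENCODE annotation (GRCm38) that is newer than the authors'. The tests were tried on simulated data, and the share of changed genes asked for at 2-fold was dropped from the pass rule after the first run missed it. In that simulation DESeq2 and the exact test called more unchanged genes than the quasi-likelihood test. DESeq2 1.42.0 and the other alternatives are described in the closing section.

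The 38 members, the lists and the rule for named genes (members past a limit, fixed anchors, and of each list at most 4 called genes) were chosen with earlier results of these data known. Ei24, Phlda3, Rrm2b, Bid, Ddit4, Bag1, Bag3, Casp12 and Mcm6 were given values by culture or by name outside that rule, after their values were seen. Figures were drawn with matplotlib 3.10.9.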

Additional observations from a re-analysis of the deposited data

How the results depend on the processing

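Of 494 refitted log2 fold changes of single members (38 genes under 13 alternatives), 463 kept their direction and their side of the limits, 4 lost the call, 2 gained one and 25 changed sign. The 4 losses were Perp without negative siRNA replicate 2 or any 1 DNMT1 siRNA culture, and the gains were Bid without negative siRNA replicate 2 and Bnip3 with no filter. Neither Btg2 nor Perp changed sign. Bnip3, past both limits with no filter, did so without negative siRNA replicate 2. The cause was not tested.

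Under other settings, 1 member was down-regulated with no filter (Bnip3), 4 were up-regulated with no limit on fold change, and 1 with an FDR below 0.01. Leaving out 1 culture gave 1 to 2 up-regulated members and 0 to 1 down-regulated. Over all genes, no filter gave 994 up-regulated and 701 down-regulated genes (and shifted the median log2 fold change of all genes to 0.11, so that changes there are relative to it), no limit on fold change 1054 and 874, and an FDR below 0.01 296 and 124. Leaving out 1 culture gave 255 to 823 up-regulated and 112 to 472 down-regulated, with 316, 255 and 314 up-regulated and 146, 112 and 145 down-regulated without DNMT1 siRNA replicate 1, 2 or 3, and at least 630 and 345 without a negative siRNA culture. DESeq2, the exact test, RLE normalization, 10 counts in every sample and leaving out short non-coding and mitochondrial genes gave 619 to 824 and 319 to 460.

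Values that changed sign belonged to genes near 0 or to Bnip3. With each culture left out in turn, the log2 fold change ran from -0.028 to 0.26 for Aen, -0.064 to 0.021 for Bad, -0.12 to 0.092 for Bcl2l1, -0.25 to 0.15 for Bmf, -1.13 to 0.59 for Bnip3, -0.22 to 0.15 for Ddb2, -0.054 to 0.26 for Eda2r, -0.11 to 0.15 for Fas, -0.19 to 0.040 for Mdm4, -0.068 to 0.12 for Pmaip1, -0.18 to 0.063 for Sesn2, -0.19 to 0.078 for Tnfrsf10b, -0.13 to 0.29 for Trp53inp1 and -0.077 to 0.024 for Xpc. Under other settings the values that changed sign were 0.0005 for Bcl2l1 with 10 counts in every sample, and -0.006 for Fas with no filter.

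The deviations of cultures with the same replicate number correlated at 0.0064, -0.021 and 0.027, beside -0.076 to 0.065 for unlike numbers. With 3 cultures a group, such values cannot show whether the samples were paired, and the main fit used no pairing. The replicate block gave 2 up-regulated and 0 down-regulated members, 513 and 285 genes over all, 0.0076 for Bcl2l1 and 0.0039 for Tnfrsf10b, and removed Mcl1 and Apaf1 from the FDR limit. Depth limits the precision most for Ddb2, with 21 to 100 reads per culture.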
